A study of Homo sapiens with 12 samples.

Results

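The genes described here are the human potassium channel genes whose symbol begins with KCN, followed through 2 neuroblastoma cell lines treated with the BET bromodomain inhibitor JQ1. They were chosen by symbol alone from the gene names of the array platform, and 89 of the 18132 genes measured met that rule. Expression was measured on PrimeView 3′ expression arrays in Kelly and BE(2)-C cells, established lines grown from human neuroblastoma, a childhood tumour of the sympathetic nervous system. Each line received 1 µM JQ1 or the solvent DMSO for 24 h, which gave 4 groups of 3 arrays. Within each line no other agent or genetic change separated the groups, and all 4 groups shared the same serum-containing medium. Each line stands for a single tumour, so a difference between them is a difference between these lines. The labels call the arrays replicates without saying whether they came from separate cultures, so the p-values measure only how these samples vary, and that variation may be technical.

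Potassium channels let potassium ions leave or enter a cell along their electrochemical gradient, and so set the resting potential and end the action potential of excitable cells. The pore is formed by alpha subunits that fall into voltage-gated (KCNA to KCND, KCNQ, KCNH and the modifier subunits KCNF, KCNG, KCNS and KCNV), calcium- or sodium-activated (KCNM, KCNN, KCNT), inward-rectifier (KCNJ) and tandem-pore (KCNK) families. Auxiliary subunits (KCNAB, KCNE, KCNIP) alter the gating and trafficking of these pores, as do the KCNMB beta subunits of BK channels, which are counted here with the calcium-activated genes. JQ1 displaces BET proteins from acetylated chromatin, and the study asked how it acts on neuroblastoma cells with amplified MYCN.

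The array medians of the normalised signal lay between 61.4 and 67.3 on the linear scale. Of 9 measured sympathetic neuroblast markers, all 9 were above background in all 4 groups. Of 12 measured markers of other cell types, 5 were above background in at least 1 group, among them VWF and SOX10 in all 4 groups. PTPRC, CD3E, LYZ, EPCAM, CDH1, KRT5 and ALB were above it in none. DCN, a fibroblast marker above background in BE(2)-C with DMSO, fell by 1.88 there with JQ1 (limma adjusted p = 0.000284; difference from Kelly, 0.00925), and ALB, though below background, rose by 0.95 in Kelly (0.0177). The summed intensity of these 12 markers was 414 to 662 in the Kelly DMSO arrays, 593 to 804 with JQ1, and 512 to 645 against 437 to 530 in BE(2)-C. Their part in the results was not tested. HEXIM1, a gene commonly used as a readout of BET inhibition, rose by 1.43 on the log2 scale in Kelly (limma adjusted p = 0.000376). The rise was 2.22 in BE(2)-C. The log2 signal of the hybridisation controls, which are bacterial transcripts added to the labelled RNA, was higher with JQ1 in 3 of 3 same-numbered Kelly pairs, by 1.04 on average (group means 11.90 ± 1.29 and 12.94 ± 0.69, SD, n = 3). The BE(2)-C pairs were higher in 1 of 3, by 0.21 on average. In extracts of whole cultures, fewer cells of a type and less RNA per cell cannot be told apart.

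Most potassium channel genes were dim. A gene was taken as above background in a group where all 3 arrays exceeded the 95th percentile of 333 olfactory receptor genes on that array, a threshold between 5.46 and 6.43 on the log2 scale. By this measure 35 of the 89 genes (39.3%) were above background in at least 1 group, against 63.6% of all genes. Kelly had 27 such genes under DMSO and 22 under JQ1. The BE(2)-C groups had 28 and 29, and 19 genes were above background in all 4 groups. The remaining 54 were above it in none. The threshold was higher on each Kelly JQ1 array (5.93, 5.96 and 6.43) than on the same-numbered DMSO array (5.68, 5.46 and 6.22). Shares of all genes were not counted by group, so no change with JQ1 is read from the group counts. These counts rest on the reference: 15 genes passed at the 99th percentile, and 8 passed with 105 taste receptor and keratin-associated genes as the reference.

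The classes differed in how many members were seen. Among the calcium- or sodium-activated genes, 8 of 11 were above background, including KCNMA1 (the pore of the BK channel), KCNN4 (the intermediate-conductance calcium-activated channel), and KCNT1 and KCNT2 (the sodium-activated Slack and Slick channels). The voltage-gated KCNA to KCND genes contributed 2 of 13, KCNC1 in all 4 groups and KCNA7 in BE(2)-C with JQ1. Among the modifier subunits, which need a partner to conduct, KCNG2, KCNS1 and KCNS2 passed, 3 of 10. The KCNQ class, which carries the M current that restrains repetitive firing, gave 2 of 3 (KCNQ1 and KCNQ3), and the KCNH class 4 of 8 (KCNH2, KCNH3, KCNH4 and KCNH6). Of the inward rectifiers 5 of 14 passed (KCNJ2, KCNJ4, KCNJ8, KCNJ11 and KCNJ12), of the tandem-pore genes 6 of 15 (KCNK3, KCNK4, KCNK5, KCNK7, KCNK10 and KCNK16) and of the auxiliary subunits 5 of 12 (KCNAB1, KCNAB2, KCNAB3, KCNE5 and KCNIP2). None of 3 noncoding RNAs with a KCN symbol passed.

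JQ1 changed 8 of the 89 genes in Kelly, 1 upward and 7 downward, at a limma adjusted p below 0.05 over all 18132 genes. That is 8.99% of the potassium channel genes, against 6.5% of all genes (1.76% higher and 4.73% lower). KCNMA1, KCNH2, KCNH1, KCNIP4, KCNJ12, KCNJ8 and KCNK3 fell and KCNMB3 rose. In BE(2)-C 4 genes changed (4.49%, against 4.69% of all genes, with 2.18% higher and 2.51% lower): KCNJ2 and KCNH8 rose, and KCNJ12 and KCNG3 fell. Averaged over the lines, 10 genes changed (11.2%, against 11.1%), of which KCNJ2 rose (4.02% of all genes did) and 9 fell (7.04%). The 9 were KCNMA1, KCNH2, KCNJ12, KCNAB1, KCNJ8, KCNIP4, KCNH1, KCNG3 and KCNK3. With the mean of the probe sets, the average calls of KCNG3 (limma adjusted p = 0.109) and KCNH1 (0.257) were lost. The median log2 change of the 89 genes was 0.11 in Kelly and -0.04 in BE(2)-C, beside 0.08 and -0.01 for all genes. These shares lie near those of all genes, so no result about the class as a whole is read from them. Over all genes the Kelly median was -0.02 for those above background and 0.17 for those not above it, and over the potassium channel genes it was 0.11 and 0.12. Without 1 array the Kelly count dropped to 5 (Kelly DMSO replicate 1 or 2, or Kelly JQ1 replicate 2 or 3). The BE(2)-C count dropped to 2 without Kelly DMSO replicate 1, without Kelly JQ1 replicate 2, or without any of BE(2)-C DMSO replicates 2 and 3 and BE(2)-C JQ1 replicates 1 and 2. Calls in BE(2)-C were 1 higher and 2 lower with quantile normalisation, and 1 and 4 with the mean of the probe sets or with every probe set tested.

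**Figure D1:**
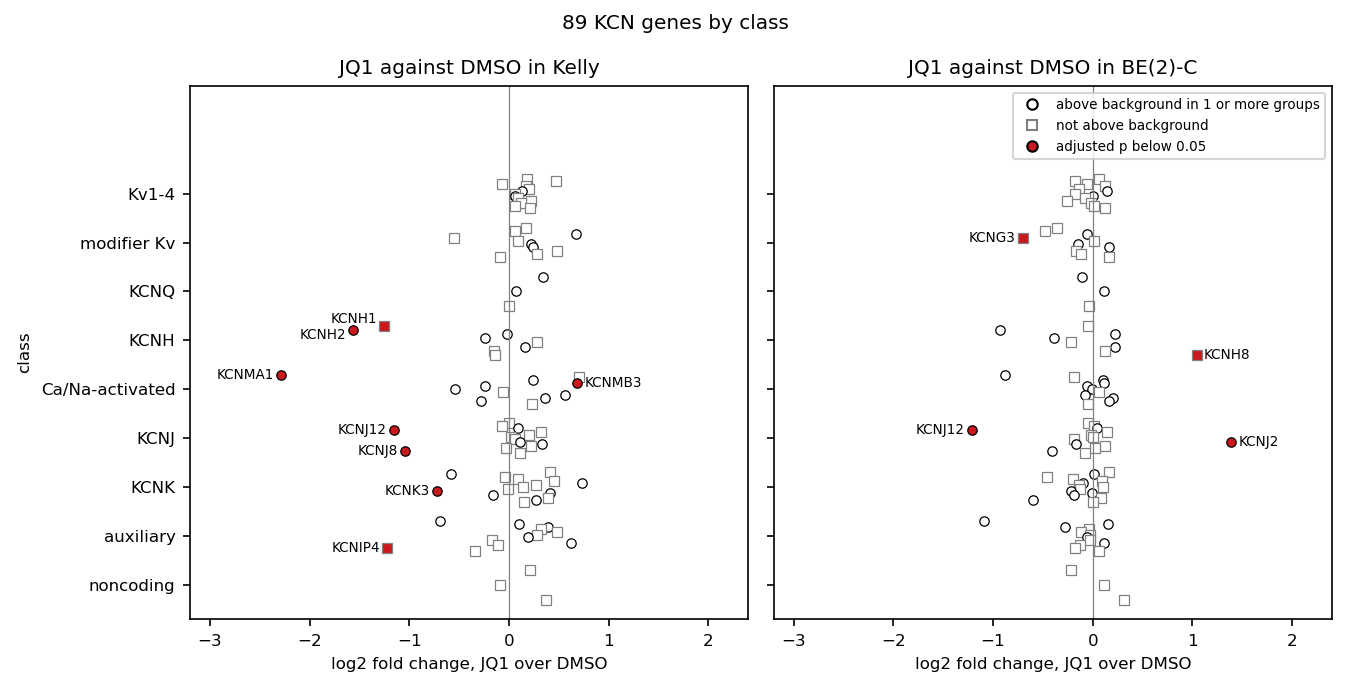
Log2 fold change (JQ1 over DMSO) of each of the 89 genes, by class, in Kelly (left) and BE(2)-C (right). Circles are genes above background in 1 or more groups, squares are genes above it in none, and red symbols are genes with a limma adjusted p below 0.05, named beside the symbol. Most genes lie near 0 in both lines, and the called genes are spread over 6 classes, with KCNMA1 farthest to the left at -2.28 in Kelly.

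The plot by class shows where the called genes lie among their families. A gene is called in part for the size of its change, so nothing is read from its distance to the others. In Kelly KCNMB1, which was not called, rose by 0.71, beside 0.69 for KCNMB3, which was. In the KCNA to KCND class no gene passed in either line, and the log2 changes ran from -0.07 to 0.47 in Kelly and from -0.25 to 0.14 in BE(2)-C. The KCNQ genes likewise had no call, with changes from -0.00 to 0.34 in Kelly and from -0.10 to 0.11 in BE(2)-C.

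Among the inward rectifiers, KCNJ12 (Kir2.2, which passes strong inward rectifier current) was lower with JQ1 in both lines. Its log2 intensity was 9.73, 9.40 and 10.05 in the Kelly DMSO arrays and 8.51, 8.61 and 8.59 in the Kelly JQ1 arrays. The BE(2)-C arrays gave 8.77, 8.45 and 8.46 with DMSO and 7.25, 7.29 and 7.49 with JQ1. In each line every JQ1 array lay below every DMSO array. The fall was 2.23-fold in Kelly (log2 change -1.15, SE 0.18, limma adjusted p = 0.00174). It was 2.32-fold in BE(2)-C (-1.21, SE 0.18, limma adjusted p = 0.00192). The difference between the 2 effects was -0.06, with a 95% interval from -0.60 to 0.48. KCNJ12 kept its call in both lines under every alternative run, with limma adjusted p up to 0.0444 in Kelly and 0.0177 in BE(2)-C. The second probe set of the gene gave -0.43 and -0.45, neither past the threshold. KCNJ12 has a near-identical copy, KCNJ18, that was not analysed here, so which of them the probes read is uncertain.

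KCNJ8 and KCNJ2 each passed the test in 1 line. KCNJ8 (Kir6.1) is a pore subunit of ATP-sensitive channels, and KCNJ2 (Kir2.1) is a classical inward rectifier that stabilises the resting potential. Their promoters, from 250 bases before to 50 bases after the start in RefSeq on GRCh38.p14, are shown because these are the inward rectifiers with a call in 1 line, together with that of KCNT1, whose level differed most between the lines. Capitals mark the GC box GGGCGG or its reverse complement, searched on both strands with overlapping matches counted.
KCNJ2 (chr17:70169282-70169581, plus strand): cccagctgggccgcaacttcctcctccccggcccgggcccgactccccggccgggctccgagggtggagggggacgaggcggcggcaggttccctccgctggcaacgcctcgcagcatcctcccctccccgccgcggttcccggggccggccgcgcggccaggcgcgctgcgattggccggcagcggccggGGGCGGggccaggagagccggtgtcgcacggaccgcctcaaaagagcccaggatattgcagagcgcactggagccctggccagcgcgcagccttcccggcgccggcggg
KCNJ8 (chr12:21774657-21774956, minus strand): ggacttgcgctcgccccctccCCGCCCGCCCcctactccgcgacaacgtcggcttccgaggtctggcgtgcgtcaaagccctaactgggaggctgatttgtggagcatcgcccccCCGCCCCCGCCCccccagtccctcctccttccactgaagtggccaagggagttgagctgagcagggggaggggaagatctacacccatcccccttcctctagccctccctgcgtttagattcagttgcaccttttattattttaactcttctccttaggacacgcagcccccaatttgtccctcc
KCNT1 (chr9:135701935-135702234, plus strand): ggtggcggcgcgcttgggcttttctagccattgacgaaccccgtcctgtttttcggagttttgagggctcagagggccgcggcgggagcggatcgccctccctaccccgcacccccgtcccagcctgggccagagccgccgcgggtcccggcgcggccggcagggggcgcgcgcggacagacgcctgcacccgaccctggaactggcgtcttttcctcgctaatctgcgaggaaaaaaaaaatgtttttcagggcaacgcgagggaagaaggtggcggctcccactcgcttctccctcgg

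The KCNJ2 promoter held 1 GC box, that of KCNJ8 held 4 and that of KCNT1 held 0. Their GC content was 78%, 61.7% and 67%, with 39, 16 and 34 CG dinucleotides, beside medians of 58.7% and 14 over all promoters. None of the 3 held CACGTG, the E-box bound by MYC family proteins, on either strand. Of 35116 promoters of the same length, 45.0% held the GC box and 7.26% the E-box. Of the 103 promoters found for 68 of the 89 potassium channel genes, 54 (52.4%) held the GC box and 7 (6.80%) the E-box. A match is a description of these letters, and an absent match says only that they are not in this window.

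KCNJ2 had log2 intensities of 5.33, 5.69 and 6.21 in the BE(2)-C DMSO arrays and of 7.10, 7.56 and 6.75 in the BE(2)-C JQ1 arrays. In Kelly it read 4.40, 4.30 and 4.93 with DMSO and 4.56, 4.69 and 4.72 with JQ1. All 3 JQ1 arrays of BE(2)-C lay above the 3 DMSO arrays, while the Kelly groups overlapped and were below background. Nor was the BE(2)-C DMSO group above background on all 3 arrays, so the size of the rise below is uncertain. KCNJ2 rose 2.62-fold in BE(2)-C (log2 change 1.39, SE 0.26, limma adjusted p = 0.00818) and kept that call under every alternative run, with adjusted p up to 0.0467. In Kelly the change was 0.11 (adjusted p = 0.812), and the difference between the lines, 1.28 with a 95% interval from 0.49 to 2.07, did not pass over all genes (limma adjusted p = 0.184). The other probe set of KCNJ2 gave 0.23 in BE(2)-C, and the mean of its probe sets 0.81. The average over both lines was 0.75 (limma adjusted p = 0.0178), a call lost without Kelly DMSO replicate 1 (0.0524).

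KCNJ8 had log2 intensities of 8.98, 8.82 and 8.24 in Kelly with DMSO and of 8.19, 7.79 and 6.94 with JQ1. The JQ1 arrays lay below the DMSO arrays, with the highest JQ1 array close to the lowest DMSO array. KCNJ8 fell 2.05-fold in Kelly (log2 change -1.04, SE 0.28, limma adjusted p = 0.0476). Its BE(2)-C arrays read 9.20, 9.61 and 9.55 with DMSO and 8.99, 9.13 and 9.02 with JQ1, a change of -0.41 that did not pass (adjusted p = 0.685). The Kelly call was close to the threshold, with limma adjusted p from 0.0061 to 0.196 over the alternatives. It ended on leaving out Kelly DMSO replicate 1 (0.196) or 2 (0.157), and on leaving out Kelly JQ1 replicate 2 (0.0919) or 3 (0.135). It was also lost without BE(2)-C DMSO replicate 2 (0.0677) or 3 (0.0609), or without BE(2)-C JQ1 replicate 1 (0.0754), 2 (0.0695) or 3 (0.0686), which alter only the shared spread. The average over the lines fell by 0.72 (limma adjusted p = 0.0351). That call ended without Kelly DMSO replicate 1 (0.0989) or 2 (0.0743), the second JQ1 array of Kelly (0.0573), the second (0.0893) or the third (0.0766) DMSO array of BE(2)-C, or any JQ1 array of BE(2)-C (0.0855, 0.0623 and 0.0762 for replicates 1, 2 and 3). KCNJ8 has 1 probe set.

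The other inward rectifier of ATP-sensitive channels, KCNJ11 (Kir6.2), was above background in all 4 groups and did not pass in either line. Its log2 change was 0.09 in Kelly (95% interval -0.40 to 0.58) and 0.04 in BE(2)-C (-0.45 to 0.53).

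KCNH2 encodes hERG, the voltage-gated channel whose block prolongs the cardiac action potential. Its log2 intensity was 10.35, 9.90 and 11.40 in Kelly with DMSO and 8.99, 9.23 and 8.73 with JQ1. BE(2)-C arrays read 12.10, 11.08 and 11.23 with DMSO and 10.60, 10.29 and 10.73 with JQ1. The groups did not overlap in either line, and the DMSO arrays were the more scattered. KCNH2 fell 2.96-fold in Kelly (log2 change -1.57, SE 0.35, limma adjusted p = 0.018), while the BE(2)-C change of -0.93 did not pass (adjusted p = 0.186). Over both lines it fell by 1.25 on the log2 scale (limma adjusted p = 0.00547). The Kelly call was lost without Kelly JQ1 replicate 3 (limma adjusted p = 0.0728), with quantile normalisation (0.0682) and with Kelly arrays fitted alone (0.0501), within a range from 0.000156 to 0.0728. In BE(2)-C the gene passed with the mean of its probe sets (-1.06, limma adjusted p = 0.00565) and with the control signal as a covariate (0.00777). Its probe sets were unequal: one at a mean log2 level of 10.36 gave -2.29 in Kelly and -1.67 in BE(2)-C, both past the threshold, and one at 7.02 gave -0.05 and -0.58.

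KCNMA1, the pore of the large-conductance channel opened by calcium and depolarisation together, had the largest JQ1 change among the 89 genes in Kelly. Its log2 intensity was 8.79, 8.80 and 9.04 with DMSO and 7.02, 6.71 and 6.05 with JQ1. Its BE(2)-C values were 8.15, 7.99 and 8.44 with DMSO and 7.09, 7.22 and 7.63 with JQ1. Every JQ1 array was below every DMSO array of its line. KCNMA1 fell 4.87-fold in Kelly (log2 change -2.28, SE 0.24, limma adjusted p = 0.000135) and kept the call under every alternative, the highest adjusted p being 0.00355. In BE(2)-C the change was -0.88 (SE 0.24), just outside the threshold (limma adjusted p = 0.0562, from 0.0161 to 0.241 over the alternatives). The effect differed between the lines by 1.40 (95% interval 0.67 to 2.13), which did not pass over all genes (limma adjusted p = 0.116). The Kelly JQ1 group was not above background on all 3 arrays, so the size of the fall there is uncertain. It also depends on the probe set: the other 5 gave log2 changes from -1.75 to 0.06 in Kelly, and the mean of all its probe sets gave -0.79.

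The beta subunit KCNMB3, which modulates BK channels, was the gene that rose in Kelly. It read 5.99, 5.82 and 5.61 with DMSO and 6.26, 6.30 and 6.90 with JQ1, close to background throughout and with no overlap. The rise was 1.61-fold (log2 change 0.69, SE 0.18, limma adjusted p = 0.0445). The Kelly DMSO group was not above background on all 3 arrays, so the size of the rise is uncertain. The other probe set of KCNMB3 gave 0.14 in Kelly, and the mean of its probe sets 0.41 (limma adjusted p = 0.0703), neither past the threshold. The call was also lost with the other variance prior (0.0594), every probe set tested (0.057) and Kelly arrays alone (0.167). With the replicate number as a block the limma adjusted p was 0.0750, and it ran from 0.026 to 0.167 over the alternatives. The call was lost without any of 10 arrays. These were Kelly DMSO replicate 1 (0.0773), 2 (0.12) or 3 (0.0721), Kelly JQ1 replicate 2 (0.062) or 3 (0.109), the second (0.0705) or the third (0.0604) DMSO array of BE(2)-C, and any JQ1 array of BE(2)-C (0.0684, 0.0698 and 0.0625 for replicates 1, 2 and 3). In the RefSeq gene table KCNMB3 overlaps 1 other protein-coding gene, and the strand read by the probes was not checked.

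KCNK3 (TASK-1), a tandem-pore channel that carries an acid-sensitive background current, read 9.23, 9.13 and 9.04 on the log2 scale in Kelly with DMSO and 8.39, 8.27 and 8.58 with JQ1. The BE(2)-C values were 9.59, 9.32 and 9.20 with DMSO and 9.13, 8.93 and 9.40 with JQ1. The Kelly groups were apart and the BE(2)-C groups overlapped. KCNK3 fell 1.65-fold in Kelly (log2 change -0.72, SE 0.17, limma adjusted p = 0.0231), and the BE(2)-C change was -0.22 (adjusted p = 0.764). The Kelly limma adjusted p ran from 0.00149 to 0.237, the highest with quantile normalisation, where the change was -0.48. The call was also lost with Kelly arrays alone (0.0777) and on leaving out Kelly DMSO replicate 1 (0.106) or 2 (0.0721), or replicate 1 (0.0585) or 2 (0.0915) of Kelly with JQ1. The average over the lines fell by 0.47 (limma adjusted p = 0.0229), a call that ended with quantile normalisation (0.236). It also ended without Kelly DMSO replicate 1 (0.0688), Kelly JQ1 replicate 2 (0.0622), the second DMSO array of BE(2)-C (0.0504), or its first (0.063) or second (0.0697) JQ1 array. Of its 3 other probe sets, the log2 changes in Kelly were -1.66, -1.14 and 0.56.

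KCNAB1, a beta subunit that speeds inactivation of KCNA channels, passed in neither line alone but did on average. Its log2 intensity was 8.33, 9.26 and 9.34 in BE(2)-C with DMSO and 8.09, 8.24 and 7.34 with JQ1. In Kelly it read 6.19, 7.06 and 6.05 with DMSO and 5.66, 5.73 and 5.83 with JQ1. In both lines all JQ1 arrays were below all DMSO arrays. The change was -0.69 in Kelly (limma adjusted p = 0.228) and -1.09 in BE(2)-C (0.0848), and the average fell by 0.89 (SE 0.23, limma adjusted p = 0.0245). In BE(2)-C the gene passed with the mean of its probe sets (-1.01, limma adjusted p = 0.0251). Quantile normalisation (0.0312) and the control signal as a covariate (0.00148) also gave a BE(2)-C call. So did leaving out Kelly DMSO replicate 2 (0.0498) or BE(2)-C DMSO replicate 1 (0.0217), within a range from 0.00148 to 0.301. Its other probe sets gave -0.71 and -1.22 in BE(2)-C, but 0.15 and -0.41 in Kelly. The average was lost without Kelly JQ1 replicate 1 (0.0533) or 2 (0.0561), BE(2)-C DMSO replicate 2 (0.0696) or 3 (0.0632), or BE(2)-C JQ1 replicate 3 (0.0639).

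**Figure D2:**
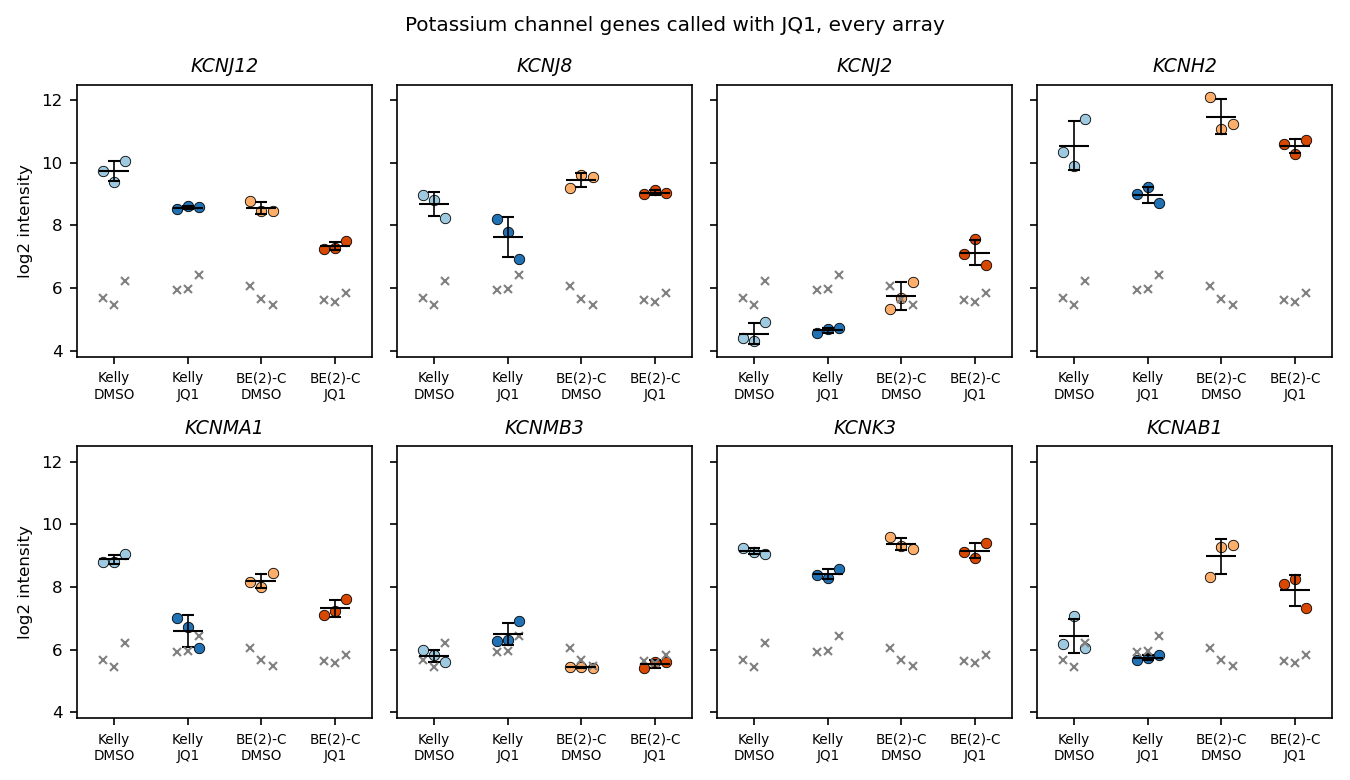
Log2 intensity on every array for the 8 genes above background with a JQ1 call in either line or on average. Points are arrays, bars the mean and SD (n = 3), and grey crosses the background threshold of each array; KCNJ12 is lower with JQ1 in both lines, whereas KCNJ2 is higher in BE(2)-C.

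Levels in the plot of arrays are comparable between groups of a gene but not between genes, since probes differ in brightness. KCNJ2 in Kelly lay below the crosses on all arrays, and KCNMB3 in BE(2)-C lay at or near them.

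Several genes were called for JQ1 although no group was above background, and they were singled out after their values were seen. KCNH1 (EAG1, a voltage-gated channel) read 5.85, 6.38 and 5.89 in Kelly with DMSO and 4.54, 5.21 and 4.62 with JQ1. It fell 2.38-fold (log2 change -1.25, SE 0.21, limma adjusted p = 0.0037), and the mean of its probe sets gave -0.46, not past the threshold (0.112). The other KCNH1 probe set, about as dim, went the opposite way in Kelly, by 0.34, and did not pass. KCNIP4, a calcium-binding partner of KCND channels, read 5.47, 5.80 and 5.08 in Kelly with DMSO and 4.38, 4.16 and 4.13 with JQ1. It fell 2.34-fold (-1.23, SE 0.18, limma adjusted p = 0.0013) and kept the call under every alternative, the highest adjusted p being 0.0219. Its 3 other probe sets gave -1.23, -0.99 and -0.46, all in the same direction.

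The dim calls in BE(2)-C lay closer to the threshold. KCNH8, a voltage-gated channel of the ELK group, read 4.65, 5.52 and 5.34 with DMSO and 6.41, 6.58 and 5.66 with JQ1, a rise of 2.07-fold (log2 change 1.05, limma adjusted p = 0.0438). KCNG3, a modifier subunit that alters other voltage-gated pores, read 5.04, 5.13 and 5.51 with DMSO and 4.78, 4.49 and 4.31 with JQ1, and fell by 0.70 on the log2 scale (limma adjusted p = 0.038). Neither gene overlapped between groups. The other probe set of each gave -0.01 for KCNH8 and 0.00 for KCNG3 in BE(2)-C, and the mean of the probe sets 0.52 (limma adjusted p = 0.171) and -0.35 (0.183). Over the alternatives the limma adjusted p ran from 0.00618 to 0.19 for KCNH8 and from 0.00578 to 0.183 for KCNG3, with the replicate block at 0.0825 for KCNG3. KCNH8 was lost without Kelly DMSO replicate 1 (0.0702), Kelly JQ1 replicate 1 (0.0627) or 2 (0.0669), BE(2)-C DMSO replicate 1 (0.12), 2 (0.0559) or 3 (0.0794), or BE(2)-C JQ1 replicate 1 (0.188) or 2 (0.19). KCNG3 was lost without Kelly DMSO replicate 1 (0.0642), Kelly JQ1 replicate 2 (0.0529), the second (0.0932) or the third (0.143) DMSO array of BE(2)-C, or BE(2)-C JQ1 replicate 1 (0.0527), 2 (0.137) or 3 (0.146).

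**Figure D3:**
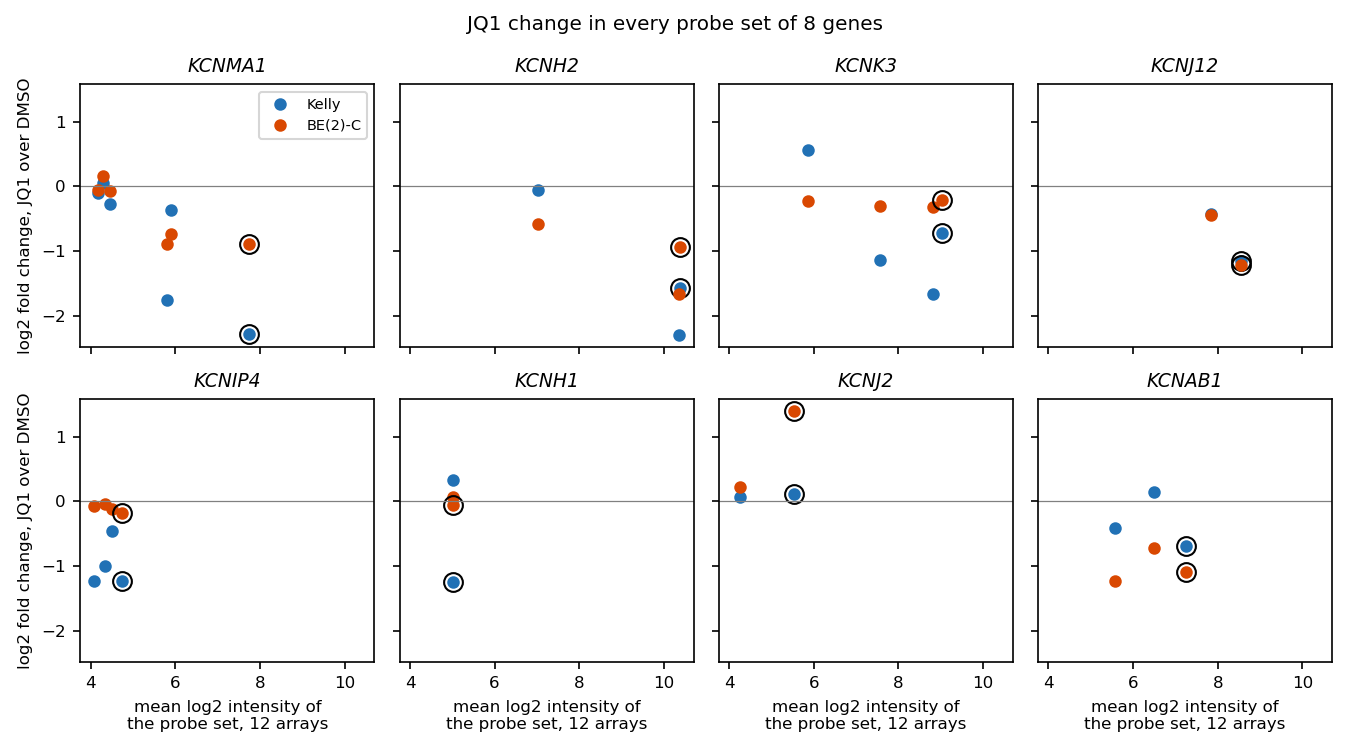
Log2 fold change with JQ1 (vertical axis) against the mean log2 intensity over 12 arrays (horizontal axis) for every probe set of 8 genes, in Kelly (blue) and BE(2)-C (orange). The ringed probe set is the brightest and the one tested; for KCNMA1 and KCNH2 other probe sets range from near 0 to about the tested size or beyond.

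The plot of probe sets shows how far a gene's change depends on which of its probes is read. The log2 change of KCNIP4 in Kelly was below 0 in all 4 of its probe sets.

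Genes of the KCNQ class and small-conductance genes gave no call. KCNQ3, a subunit of the M channel, changed by 0.07 in Kelly (95% interval -0.36 to 0.50) and by 0.11 in BE(2)-C (-0.32 to 0.54). KCNQ1, which pairs with KCNE subunits, gave 0.34 (-0.14 to 0.82) and -0.10. KCNQ5 and the small-conductance calcium-activated channel KCNN3, both below background, gave -0.00 (-0.31 to 0.30) and -0.06 (-0.51 to 0.39) in Kelly. Probes at background may not show a change, so nothing is read from the intervals of these last genes. Another KCNQ5 probe set, also dim, gave an average change of -0.57 (limma adjusted p = 0.0192 over all probe sets). KCNG2 had the largest average change among modifier subunits above background, 0.67 in Kelly (0.08 to 1.26, limma adjusted p = 0.168) and -0.06 in BE(2)-C. KCNA7 had that place among KCNA to KCND genes, with 0.13 and 0.14.

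No potassium channel gene passed the limma test of a difference between the lines in the JQ1 effect, against 0.557% of all genes (0.441% with a higher change in BE(2)-C). At an unadjusted p below 0.05 there were 10 (11.2%, against 11.3% of all genes), with KCNMA1, KCNJ2, KCNH1, KCNH8 and KCNIP4 having the largest positive differences. With the hybridisation control signal as a covariate 3 passed: KCNMA1 (limma adjusted p = 0.0329), KCNH1 (0.0362) and KCNIP4 (0.0177). Without Kelly DMSO replicate 3, KCNIP4 passed (0.0218). In the other fits run the count was 0. A call in 1 line and none in the other is therefore not shown to be a difference between them.

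The lines were compared under each treatment. The control probe sets of ACTB, whose 3′ minus 5′ log2 signal rises with RNA degradation, gave 1.24 to 2.24 on the 6 Kelly arrays and 0.63 to 1.24 on the 6 BE(2)-C arrays, and the part of this in the differences was not tested. With DMSO, 9 of the 89 genes differed (10.1%, against 15.1% of all genes), of which 3 were higher in BE(2)-C (7.2% of all genes) and 6 lower (7.89%). KCNT1, KCNAB1 and KCNJ2 were higher there, and KCNK5, KCNK10, KCNH1, KCNMB4, KCNJ12 and KCNIP4 were higher in Kelly. With JQ1, 16 differed (18.0%, against 23.3%), 8 higher in BE(2)-C (12.9% of all genes) and 8 lower (10.4%). The latter split moved with the processing: it was 6 higher and 10 lower with quantile normalisation, 7 and 13 with only the groups compared, and 13 and 6 with every probe set tested. The DMSO and JQ1 comparisons of the lines share no arrays. The difference of KCNIP4 with DMSO (-0.71, limma adjusted p = 0.0166) was lost without Kelly DMSO replicate 1 (0.0596) or 2 (0.0713) or BE(2)-C DMSO replicate 2 (0.0637).

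KCNT1 (Slack, a sodium-activated channel of neurons) separated the lines most. Its log2 intensity was 10.46, 9.81 and 9.95 in BE(2)-C with DMSO and 10.28, 10.25 and 10.31 with JQ1. In Kelly it was 5.04, 4.67 and 5.15 with DMSO and 5.60, 5.02 and 5.34 with JQ1. All 6 BE(2)-C arrays lay far above all 6 Kelly arrays, and Kelly was below background. The line difference was 5.12 on the log2 scale with DMSO (34.8-fold, SE 0.21, limma adjusted p = 6.17e-09) and 4.96 with JQ1 (31.2-fold, 6.68e-09). Since Kelly is at background, the fold is uncertain in size. Other probe sets gave 0.91 and 0.17 with DMSO, and the mean of the probe sets 2.07. JQ1 changed it by 0.36 in Kelly (limma adjusted p = 0.313) and 0.21 in BE(2)-C (0.907), neither past the threshold.

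KCNAB1 was 5.82-fold higher in BE(2)-C with DMSO (log2 difference 2.54, SE 0.33, limma adjusted p = 0.000124) and 4.44-fold higher with JQ1. Neither Kelly group of KCNAB1 was above background, so the size of these folds is uncertain. KCNJ2 was 2.3-fold higher with DMSO (1.20, limma adjusted p = 0.00597) and 5.59-fold higher with JQ1 (2.48, 2.15e-05), from Kelly levels at background. The other probe set of KCNJ2 gave 0.21 with DMSO and 0.38 with JQ1, neither past the threshold. The mean of its probe sets gave 0.71 (limma adjusted p = 0.0111) and 1.43 (7.42e-05), so the size of these folds is uncertain. KCNJ12 was 2.25-fold lower in BE(2)-C with DMSO (-1.17, limma adjusted p = 0.000503) and lower by 1.23 with JQ1.

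Of the tandem-pore genes, 2 of 15 differed with DMSO, KCNK5 and KCNK10, both higher in Kelly, and the class median difference was 0.02. KCNK5 (TASK-2, an alkali-activated background channel) read 6.51, 6.63 and 6.83 in Kelly with DMSO and 4.84, 4.97 and 4.63 in BE(2)-C. It was the single gene above background in both Kelly groups and in no BE(2)-C group, and differed 3.59-fold with DMSO (log2 difference -1.84, SE 0.15, limma adjusted p = 2.8e-06) and by -1.86 with JQ1. Its other probe set gave -0.18 with DMSO. KCNK10 (TREK-2, a mechanically gated background channel) read 6.03, 6.62 and 6.85 in Kelly and 5.37, 4.85 and 4.80 in BE(2)-C with DMSO, a difference of 2.81-fold (-1.49, SE 0.25, limma adjusted p = 0.000942). With JQ1 that difference was -0.89 (limma adjusted p = 0.0196), which was lost without Kelly JQ1 replicate 3 (0.0826) or BE(2)-C JQ1 replicate 1 (0.0564) or 2 (0.0834). It was also lost with the mean of the probe sets (-0.50, limma adjusted p = 0.0693), and KCNK10 was above background in neither line with JQ1. KCNMB4, the neuronal BK beta subunit, read 7.12, 7.07 and 6.66 in Kelly and 5.88, 5.49 and 5.48 in BE(2)-C, 2.52-fold (-1.33, SE 0.22, limma adjusted p = 0.000831). The groups of these 3 genes did not overlap.

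**Figure D4:**
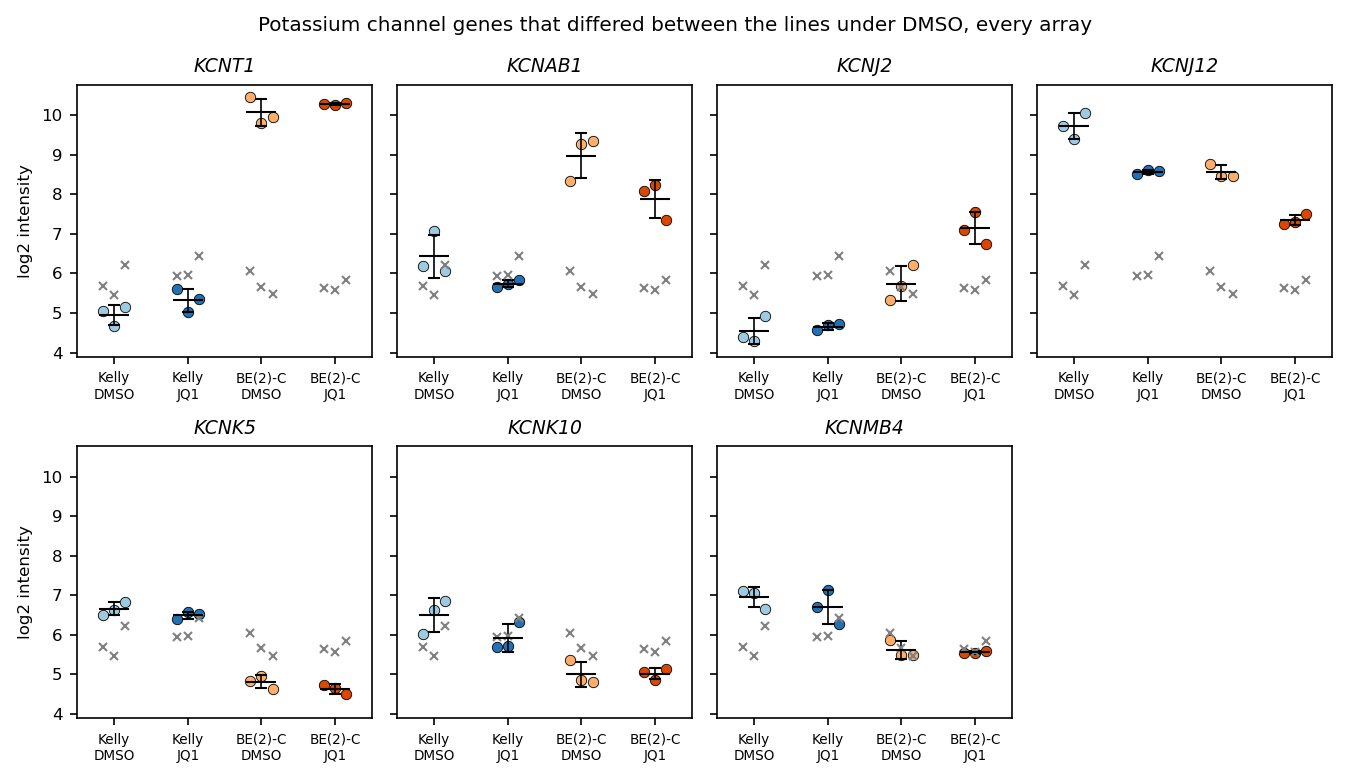
Log2 intensity on every array for the 7 genes above background that differed between the lines under DMSO. Points are arrays, bars the mean and SD (n = 3), grey crosses the background threshold; KCNT1, KCNAB1 and KCNJ2 are higher in BE(2)-C and KCNJ12, KCNK5, KCNK10 and KCNMB4 higher in Kelly.

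The plot of line differences shows BE(2)-C near or below the crosses for KCNK5, KCNK10 and KCNMB4, and Kelly below them for KCNT1 and KCNJ2. In Kelly, KCNAB1 was below the crosses on the 3 JQ1 arrays and not above them on all DMSO arrays. Those differences therefore have a side that is not above background, and KCNJ2 with DMSO and KCNK10 with JQ1 were above it in neither line.

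In the JQ1 comparison of the lines, KCNJ8, KCNH2, KCNK3 and KCNMA1 were also higher in BE(2)-C. The log2 differences were 1.41 (limma adjusted p = 0.00322), 1.56 (0.00634), 0.74 (0.00711, and 0.218 with quantile normalisation) and 0.72 (0.0464). The other KCNH2 probe sets gave 0.60 and 0.03, neither past the threshold, and the mean of its probe sets 0.73 (limma adjusted p = 0.0113). KCNMA1 was near the threshold, and its call ended without Kelly DMSO replicate 1 (0.0644) or 2 (0.0521), without Kelly JQ1 replicate 2 (0.0754) or 3 (0.171), BE(2)-C DMSO replicate 2 (0.0577), or BE(2)-C JQ1 replicate 1 (0.0625), 2 (0.0982) or 3 (0.142). It also ended with the mean of the probe sets (0.18, limma adjusted p = 0.228) and with quantile normalisation (0.110). The same held with only the groups compared (0.0591), every probe set tested (0.0535), the other variance prior (0.0569) and the control signal as covariate (0.0594). KCNMB3 was lower in BE(2)-C by 0.95 on the log2 scale (limma adjusted p = 0.00262). Genes below background that differed were KCNH8, higher by 1.92, and KCNG1, KCNMB1 and KCNQ1OT1, with differences of -0.79, -0.92 and -1.12. The other KCNH8 probe set gave 0.14, not past the threshold, and the mean of its probe sets 1.03 (limma adjusted p = 0.00195). Another KCNG1 probe set, also dim, fell with JQ1 by 0.90 in Kelly (limma adjusted p = 0.0107 over all probe sets). On average it fell by 0.79 (0.00182), where the tested one gave -0.21. KCNMB1 was lost without Kelly JQ1 replicate 3 (limma adjusted p = 0.0541), and KCNQ1OT1 without that array (0.163), BE(2)-C DMSO replicate 2 (0.0512) or BE(2)-C JQ1 replicate 1 (0.0791), 2 (0.0979) or 3 (0.108). KCNQ1OT1 was also lost with quantile normalisation (limma adjusted p = 0.067) and with the control signal as covariate (0.0773).

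Partner genes were examined beside the channels: 28 of 39 listed symbols for channel partners and potassium transporters were measured, of which 19 were above background. With JQ1, 2 passed in Kelly, both lower: DPP6, a KCND auxiliary subunit (log2 change -1.74, limma adjusted p = 0.0059), and ANK3, the ankyrin that anchors channels at the axon initial segment (-1.72, 0.00199). In BE(2)-C ANK3 fell by 1.43 (limma adjusted p = 0.0089) and SGK1, a kinase that regulates channel traffic, by 1.47 (0.00202). The SGK1 effect differed between lines by -1.97 (limma adjusted p = 0.0121). Of all genes, 6.5% passed with JQ1 in Kelly and 4.69% in BE(2)-C, and no result about the list as a whole is read from its counts. The medians of the list were 0.24 in Kelly and 0.04 in BE(2)-C. With DMSO, 4 partner genes were higher in BE(2)-C (7.2% of all genes were) and 2 lower (7.89%). SGK1, RCOR1, ABCC9 and ATP1B1 were higher in BE(2)-C, by 4.37, 2.44, 1.48 and 0.98. CNTNAP2, which clusters axonal potassium channels, and DPP6 were lower there, with differences of -6.72 and -1.79. CNTNAP2 stood at 11.64, 11.69 and 11.71 in Kelly and 4.72, 5.17 and 5.01 in BE(2)-C. ANK3 was above background only in Kelly with DMSO. SGK1 was above it in neither Kelly group, CNTNAP2 in neither BE(2)-C group and ABCC9 in no group. DPP6 was not above it in Kelly with JQ1. The sizes of changes and differences that rest on these groups are therefore uncertain.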

How the data were processed

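Expression was measured on 12 arrays, 3 in each of 4 groups. The deposited table holds the authors' normalised intensity per probe set on a linear scale, made with RMA per the submitters' processing notes, with no version named there. The planned tests assumed log2 values, so log2 was taken of each intensity (no value was at or below 0). Of 49395 probe sets, 44988 named 1 gene, 1832 several and 2473 none; 99.94% of the former matched RefSeq by gene ID, 18132 genes in all. The potassium channel genes had 203 such probe sets, with 5 more naming several genes left out. Each gene was read from its brightest probe set on average. Differences were tested with limma 3.58.1 (R 4.3.3) on 4 group means over all 12 arrays, with Benjamini-Hochberg adjustment over all genes and a threshold of 0.05; the fit was tested on simulated data. The number of arrays limits the precision.

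Named were the genes above background with a JQ1 call in either line, on average or in the difference of effects; up to 10 genes above background in each direction between the lines under DMSO; 8 fixed genes, of which 2 are not analysed here; and, for a class in which no gene above background had a JQ1 call, its member above background with the largest average change. The members and lists were chosen with earlier results of these data known. Same-numbered samples deviated together in Kelly (correlations of 0.434, 0.228 and 0.515). In BE(2)-C the correlations were -0.0706, 0.527 and -0.744, with no common direction. Samples of unlike number were not compared, so these values do not settle whether the numbers pair samples in either line. The alternatives were other choices of probe set, normalisation, variance prior, filter on dim genes, samples in the fit, replicate block, control signal as covariate, and each array left out.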

Additional observations from a re-analysis of the deposited data

How the results depend on the processing

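No called gene changed sign under the alternatives run; genes that did not pass were not followed for sign. The balance of higher and lower calls did turn between the lines with JQ1: 8 and 8 became 13 and 6 with every probe set tested, 6 and 10 with quantile normalisation and 7 and 13 with only the groups compared. For JQ1 in BE(2)-C, 2 and 2 became 1 and 4 with the mean of the probe sets or every probe set tested. With only the groups compared in the fit, 4 potassium channel genes passed in Kelly in place of 8. With the hybridisation control signal as a covariate, 8 passed in BE(2)-C in place of 4, 3 in the difference of effects in place of 0, and 14 between the lines with DMSO in place of 9. The same covariate gave 5 partner genes in Kelly and 5 in BE(2)-C in place of 2 each, and the mean of the probe sets gave 1 in BE(2)-C. The cause was not tested. Genes above background numbered 15 at the 99th percentile and 8 with the taste receptor and keratin-associated reference, in place of 35, as the stricter thresholds require. Leaving out 1 array gave counts of 5 to 9 in Kelly, 2 to 5 in BE(2)-C, 7 to 10 on average, 0 to 1 for the difference of effects, 8 to 12 between the lines with DMSO and 12 to 23 with JQ1. For partner genes the Kelly count was 2 to 4, and that of BE(2)-C 2 to 3. With the replicate number as a block within each line, a pairing not settled in either, 7 genes passed in Kelly and 3 in BE(2)-C. Among the genes named, the block ended the calls of KCNMB3 in Kelly and KCNG3 in BE(2)-C and no other. Genes at or below background limit what can be said of the size of a change.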

Other observations

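The ATP-sensitive channel genes lie next to their regulatory subunits in the genome: KCNJ8 and ABCC9 are 1 place apart among protein-coding genes in the RefSeq table, and so are KCNJ11 and ABCC8. ABCC9 was above background in no group. In BE(2)-C it read 4.58, 6.12 and 6.11 on the log2 scale with DMSO and 4.27, 4.39 and 4.43 with JQ1, a change of -1.24 that did not pass (limma adjusted p = 0.0571), where KCNJ8 gave -0.41. In Kelly ABCC9 changed by 0.30, where KCNJ8 fell by 1.04. ABCC8 changed by 0.05 in Kelly and by 0.16 in BE(2)-C, beside 0.09 and 0.04 for KCNJ11.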
